A study of Mus musculus with 2 samples.

Results

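The collagen gene family was examined in the hearts of 23 day old mice that lacked Med1, a subunit of the Mediator complex, in cardiomyocytes. Members were all genes whose symbol is Col, a number, the letter a and a number, and values on rows with the same symbol were added. This gave 42 of 22882 gene symbols. The study compared csMed1-/- mice, in which floxed Med1 alleles were removed by Cre recombinase under the α-myosin heavy chain promoter, with Med1fl/fl mice that carry the floxed alleles. Both groups had the C57BL6/J background and mixed sex, and neither was treated. The promoter is active in cardiomyocytes, so the other cells of the heart, the fibroblasts and endothelial cells among them, were not targeted. Heart RNA of 5 mice was pooled for each genotype and 1 poly(A) library was sequenced from each pool, so no spread between animals can be estimated and no test between the genotypes was possible. Values are FPKM, fragments per kilobase of transcript scaled to the size of the library, which can be compared between genes because they are per length. A difference is given as the ratio of csMed1-/- to Med1fl/fl FPKM or its log2, and a gene was counted as different when this ratio passed 2-fold in either direction.

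Collagens are proteins whose chains wind into a triple helix, and their genes are grouped by the structure the protein builds. Fibrillar collagens form the fibers that carry tension in the interstitium of the heart, and collagen IV forms the sheet-like network of the basement membranes around cardiomyocytes and vessels. FACIT collagens (fibril-associated collagens with interrupted triple helices) sit on the surface of fibrils, collagen VI forms beaded filaments, collagen VIII forms networks in vessel walls, and the multiplexins XV and XVIII lie in basement membrane zones. In the heart most interstitial collagen is made by fibroblasts, and scarring of the myocardium is known for an excess of types I and III.

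Promoter windows are shown for Col9a2, Col8a1 and Col8a2, which had 3 of the 4 largest ratios among kept members, for Col1a2 of collagen I, and for Col4a1 and Col4a4, which are transcribed away from a partner chain at a neighbouring start. Col12a1, Col1a1 and Col5a2 had no window in the RefSeq table used. Each window runs from 250 bases before to 50 bases after a RefSeq transcript start (GRCm38.p6), written 5′ to 3′ along the gene, with motif matches on either strand in capitals. The motifs searched were the CCAAT box, the GC box GGGCGG of Sp1-type factors, the TATA box TATAAA, the AP-1 motif TGANTCA and CAGAC, which belongs to the SMAD binding element. The windows were taken at chr4:121039316-121039615 (plus strand) for Col9a2, chr16:57754688-57754987 (minus) for Col8a1, chr4:126286544-126286843 (plus) for Col8a2, chr6:4505368-4505667 (plus) for Col1a2, chr8:11312777-11313076 (minus) for Col4a1 and chr1:82586800-82587099 (minus) for Col4a4.
Col9a2: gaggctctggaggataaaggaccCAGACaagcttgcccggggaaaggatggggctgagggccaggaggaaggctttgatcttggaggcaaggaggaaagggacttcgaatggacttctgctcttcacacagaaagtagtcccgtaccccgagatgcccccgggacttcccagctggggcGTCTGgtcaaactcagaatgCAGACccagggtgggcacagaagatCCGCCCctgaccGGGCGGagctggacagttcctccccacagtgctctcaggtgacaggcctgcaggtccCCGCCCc
Col8a1: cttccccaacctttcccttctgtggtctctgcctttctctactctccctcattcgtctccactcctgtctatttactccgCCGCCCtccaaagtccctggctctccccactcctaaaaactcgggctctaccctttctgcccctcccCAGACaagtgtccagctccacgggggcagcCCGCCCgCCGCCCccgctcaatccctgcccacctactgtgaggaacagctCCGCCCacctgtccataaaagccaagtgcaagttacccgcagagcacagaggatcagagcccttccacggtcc
Col8a2: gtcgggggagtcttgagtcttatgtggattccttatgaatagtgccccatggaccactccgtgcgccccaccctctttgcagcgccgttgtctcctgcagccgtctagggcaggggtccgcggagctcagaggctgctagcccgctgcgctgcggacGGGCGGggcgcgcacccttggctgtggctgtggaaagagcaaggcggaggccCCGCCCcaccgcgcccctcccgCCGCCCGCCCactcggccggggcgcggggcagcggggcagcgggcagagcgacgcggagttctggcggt
Col1a2: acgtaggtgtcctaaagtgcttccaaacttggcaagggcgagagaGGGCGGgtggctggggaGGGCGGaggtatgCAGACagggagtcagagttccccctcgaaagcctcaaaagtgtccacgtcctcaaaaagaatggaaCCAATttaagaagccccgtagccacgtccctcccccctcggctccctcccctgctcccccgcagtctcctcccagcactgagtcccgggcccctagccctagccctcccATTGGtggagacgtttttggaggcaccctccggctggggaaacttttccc
Col4a1: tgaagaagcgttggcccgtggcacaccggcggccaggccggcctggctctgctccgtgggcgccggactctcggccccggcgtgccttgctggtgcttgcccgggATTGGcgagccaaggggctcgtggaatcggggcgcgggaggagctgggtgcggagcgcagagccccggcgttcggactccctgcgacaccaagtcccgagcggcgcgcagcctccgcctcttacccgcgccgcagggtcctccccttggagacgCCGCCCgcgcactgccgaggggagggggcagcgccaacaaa
Col4a4: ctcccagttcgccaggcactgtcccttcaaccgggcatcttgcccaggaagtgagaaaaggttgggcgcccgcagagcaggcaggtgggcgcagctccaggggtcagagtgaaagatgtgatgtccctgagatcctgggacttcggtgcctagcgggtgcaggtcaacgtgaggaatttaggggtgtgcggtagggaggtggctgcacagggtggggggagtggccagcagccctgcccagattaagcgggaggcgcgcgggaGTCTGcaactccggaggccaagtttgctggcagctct
The GC box was found in 23 of 37 windows of the 34 collagen genes that matched the RefSeq table, against 35.7% of all 32851 windows of the same length. The CCAAT box was found in 13 of 37 against 37.4%, the SMAD motif in 19 of 37 against 49.6%, the TATA box in 5 of 37 against 13.6% and the AP-1 motif in 1 of 37 against 7.81%. Col9a2 held 3 GC boxes and 3 SMAD motifs, and Col8a1 and Col8a2 held 4 GC boxes each. These are matches of letters in short windows and not binding sites. Col4a1 and Col4a2 are annotated on opposite strands of chromosome 8 with overlapping gene ends 84 bases apart, and their windows share 78 bases, so the Col4a1 sequence also covers the start of Col4a2. Col4a4 and Col4a3 are arranged in the same way on chromosome 1, with overlapping ends 113 bases apart, and Col4a6 and Col4a5 on chromosome X, with ends 1275 bases apart.

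The pooled libraries listed 23424 rows each, and their FPKM summed to 780366 in Med1fl/fl and 716365 in csMed1-/-. Read counts were not among the values, so the depth behind single values is unknown, but the smallest steps between low values imply 1.39 times as many reads in csMed1-/- as in Med1fl/fl. Med1 itself had 3.38 FPKM in Med1fl/fl and 0.412 FPKM in csMed1-/- heart. The cardiomyocyte markers Myl2, Tnni3, Tnnt2, Myl3 and Ttn had 20467, 10283, 2280, 17340 and 8.22 FPKM in Med1fl/fl heart. In csMed1-/- heart they had 6571, 1537, 1119, 10278 and 5.75 FPKM. By contrast, Tnnc1, Actn2 and Nkx2-5 had 4647, 1286 and 146 FPKM in Med1fl/fl and 5823, 1892 and 188 FPKM in csMed1-/- heart. Heart muscle transcripts were thus abundant in both. Actc1, the cardiac α-actin that cardiomyocytes use throughout, was listed at 0 in Med1fl/fl and at 9189 FPKM in csMed1-/- heart, and the listed 0 may be a failed estimate, so no difference is read from it.

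More collagen genes were higher than lower in csMed1-/- heart. Of the 42 members, 2 (Col19a1 and Col6a4) were listed at 0 in both libraries, 17 were above 0 but below 1 FPKM in both, and 23 reached 1 FPKM in at least 1 library. Of the 40 members above 0 in both, 16 were more than 2-fold higher and 6 more than 2-fold lower in csMed1-/- heart, against 15.7% higher and 20.0% lower (35.7% either way) of 15930 genes. Their median log2 ratio was 0.65, with 27 above and 13 below 0, and that of all 15930 genes was -0.07. Of the 16 members at 1 FPKM or more in both libraries, 7 were more than 2-fold higher and 0 lower, against 11.3% and 14.7% (26.0% either way) of 9160 genes. Of the 23 members that reached 1 FPKM in either library, called kept below, 12 were higher and 2 lower, where 13.6% of all 10489 genes kept by the same rule were higher and 18.0% lower (31.5% either way). Of the 12, 5 genes, namely Col4a4, Col9a2, Col12a1, Col8a1 and Col8a2, reached 1 FPKM only in csMed1-/- heart, and both lower genes, Col6a6 and Col13a1, only in Med1fl/fl heart, so the filter itself favored a difference for these 7. All members come from the same pair of libraries and are not replicates. In RNA of whole hearts, a different number of cells of a type and a different amount of RNA per cell cannot be told apart.

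**Figure D1:**
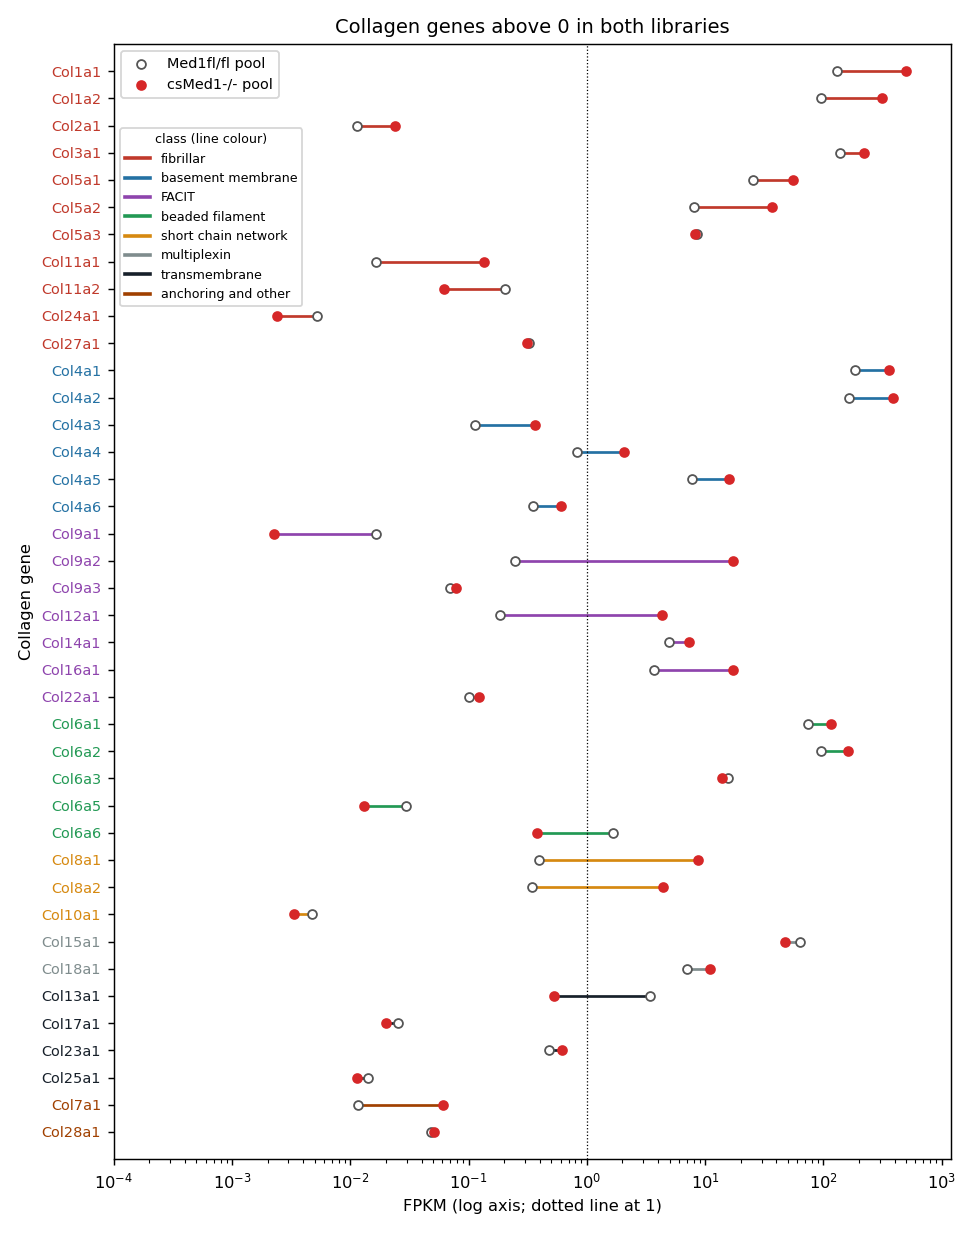
FPKM of the 40 collagen genes above 0 in both libraries (horizontal log axis), with an open circle for the Med1fl/fl pool, a red circle for the csMed1-/- pool and a line colored by collagen class joining them. All 6 collagen IV genes lie further right in csMed1-/-, and the longest lines to the right belong to Col9a2, Col12a1, Col8a1 and Col8a2.

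Summed over all members, collagen transcripts had 1039 FPKM in Med1fl/fl and 2314 FPKM in csMed1-/- heart, 2.23 times as much. They made up 0.133% and 0.323% of the summed FPKM of all genes. The sum of the fibrillar class was 407 and 1137 FPKM (ratio 2.79), and that of the basement membrane class 360 and 765 FPKM (2.13). Fibrillar transcripts made up 39.2% and 49.1% of the collagen total, while collagen IV stood at 34.6% and 33.1%. The beaded filament class had a smaller ratio of 1.56 (188 and 293 FPKM) and its share was 18.1% and 12.7%. FACIT collagens were a small part in either heart, at 9.26 and 46.3 FPKM (ratio 5.00), and the short chain network of collagens VIII and X had 0.739 and 13.2 FPKM (ratio 17.8). Only the multiplexin class, at 70.3 and 58.7 FPKM (ratio 0.835), and the transmembrane class, at 3.91 and 1.17 FPKM (ratio 0.300), had lower sums in csMed1-/- heart. The transmembrane sum turned on Col13a1, and without this gene its log2 ratio was 0.32. The multiplexin sum turned in the same way on Col15a1, and without it the log2 ratio was 0.65.

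**Figure D2:**
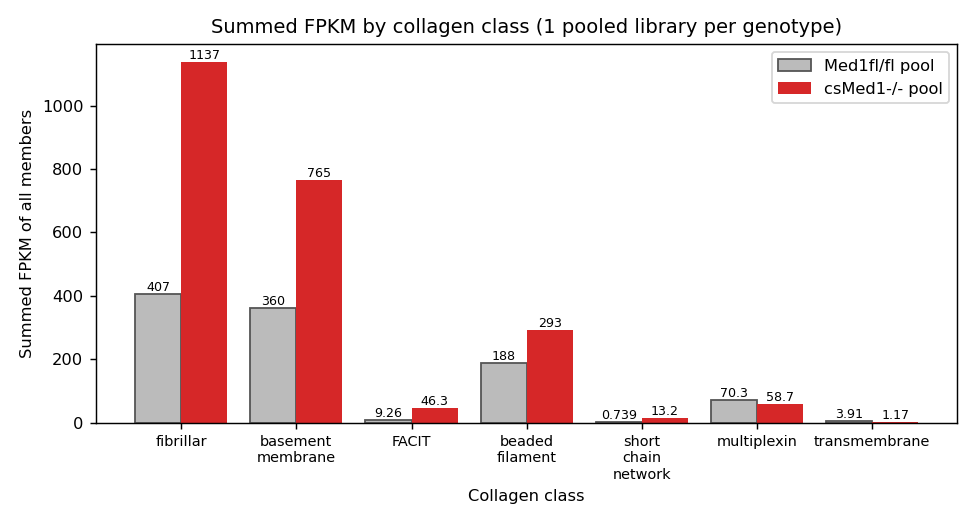
Summed FPKM (linear axis from 0) of all members of each collagen class, with gray bars for the Med1fl/fl pool and red bars for the csMed1-/- pool. The class of Col7a1 and Col28a1, anchoring and other, is not drawn. Fibrillar collagens had 407 and 1137 FPKM, and the basement membrane class 360 and 765 FPKM. There are no error bars because each genotype was 1 pooled library.

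Among the fibrillar collagens, the chains of type I had the highest FPKM in csMed1-/- heart. Col1a1 (chr11:94936224-94953042), which encodes the α1 chain of collagen I, had 129 FPKM in Med1fl/fl and 502 FPKM in csMed1-/- heart (ratio 3.87). Col1a2, which encodes the α2 chain of the same trimer, had 95.7 and 314 FPKM (3.29). The FPKM ratio of Col1a1 to Col1a2 was 1.35 in Med1fl/fl and 1.60 in csMed1-/- heart, so these chains differed by similar factors. Col3a1 (chr1:45311538-45349706), whose product co-assembles with type I in heart muscle, had 139 and 220 FPKM, a ratio of 1.58 that stayed inside 2-fold. Col1a1 stood at 0.929 times Col3a1 in Med1fl/fl and at 2.28 times Col3a1 in csMed1-/- heart.

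Collagen V, which sits inside type I fibrils and sets their diameter, was higher in 2 of its 3 genes. Col5a1 had 25.3 and 55.4 FPKM (ratio 2.19), and Col5a2 had 8.01 and 37.0 FPKM (4.62). The Col5a1 to Col5a2 ratio was 3.16 in Med1fl/fl and 1.5 in csMed1-/- heart. Col5a3, the chain of a less common form, had 8.60 and 8.27 FPKM. The cartilage fibril genes Col2a1 (0.0114 and 0.0239 FPKM), Col11a1 (0.0165 and 0.135) and Col11a2 (0.204 and 0.0618), as well as Col24a1 (0.00520 and 0.00240), differed by more than 2-fold but stayed below 1 FPKM in both hearts, and Col27a1 had 0.323 and 0.313 FPKM. Adding 1 FPKM to both values brought these low genes inside 2-fold.

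All 6 collagen IV genes had higher FPKM in csMed1-/- heart, 4 of them by more than 2-fold. With 1 FPKM added to both values, 3 of these 4, Col4a3, Col4a4 and Col4a5, came inside 2-fold at log2 ratios of 0.30, 0.74 and 0.93. Col4a1 (chr8:11198423-11312889) and Col4a2 (chr8:11312805-11449287), the chains of the widespread form of the basement membrane network, were the most abundant collagen transcripts of Med1fl/fl heart, at 185 and 166 FPKM. In csMed1-/- heart they had 360 and 386 FPKM, ratios of 1.95 and 2.32, and the Col4a1 to Col4a2 ratio was 1.11 and 0.934. Col4a1 thus lay just below the 2-fold threshold and Col4a5, at 7.80 and 15.8 FPKM (2.02), just above it. Col4a3 (0.112 and 0.366 FPKM, ratio 3.26) and Col4a4 (0.827 and 2.05 FPKM, 2.48), which join Col4a5 in the mature network of the kidney filter and a few other tissues, were low in both hearts. Col4a6 had 0.349 and 0.604 FPKM (1.73). The genes of each divergent pair thus had ratios on the same side of 1, as did all 6 genes.

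The FACIT class held the member with the largest ratio. Col9a2 (chr4:121039566-121055325), which encodes the α2 chain of collagen IX, had 0.246 FPKM in Med1fl/fl and 17.1 FPKM in csMed1-/- heart, 69.6-fold higher and rank 5 from the top among 10489 genes. The rank is of plain ratios, and Col9a2 entered the kept set only through csMed1-/- heart. Its log2 ratio of 6.12 was 3.86 with 1 FPKM added to both values. Collagen IX is known from cartilage, where a trimer of its different chains coats type II fibrils. The other chains were near the bottom of both libraries, with 0.0164 and 0.00228 FPKM for Col9a1 and 0.0692 and 0.0787 FPKM for Col9a3. Col9a2 thus stood at 3.55 times Col9a3 in Med1fl/fl and at 218 times Col9a3 in csMed1-/- heart. Of 8 markers of cartilage and valve, Matn1 and Matn3 were listed at 0 in both hearts, Hapln1 had 0.00297 FPKM and a listed 0, and Acan had 0.0334 and 0.0301 FPKM. Matn4 (0.607 and 3.15 FPKM) and Sox9 (0.413 and 1.41 FPKM) were more than 2-fold higher and reached 1 FPKM only in csMed1-/- heart. Chad (1.23 and 0.561 FPKM), which reached it only in Med1fl/fl heart, and Lect1 (0.192 and 0.0344 FPKM), below it in both, were more than 2-fold lower.

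Col12a1 and Col16a1, both of which bind the surface of fibrils or of other matrix, were also higher. Col12a1 had 0.184 and 4.31 FPKM (ratio 23.4), and Col16a1 had 3.71 and 17.4 FPKM (4.68). The log2 ratio of Col12a1, 4.55, was 2.16 with 1 FPKM added to both values. Col14a1, the closest relative of Col12a1, had 4.93 and 7.27 FPKM (1.47). Col22a1 had 0.0999 and 0.122 FPKM.

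Both genes of collagen VIII, a product of vessel wall cells and fibroblasts, were low in Med1fl/fl heart and more than 10-fold higher in csMed1-/- heart. Col8a1 (chr16:57624256-57754737) had 0.393 and 8.72 FPKM (ratio 22.2), and Col8a2 (chr4:126286794-126314330) had 0.341 and 4.43 FPKM (13.0). With 1 FPKM added to both values, their log2 ratios of 4.47 and 3.70 were 2.80 and 2.02, so neither then passed 10-fold. They ranked 47 and 93 from the top among the 10489 genes. These ranks are of plain ratios, and both genes entered the kept set only through csMed1-/- heart. The Col8a1 to Col8a2 ratio was 1.16 and 1.97. Col10a1, the related gene of hypertrophic cartilage, had 0.00478 and 0.00335 FPKM.

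**Figure D3:**
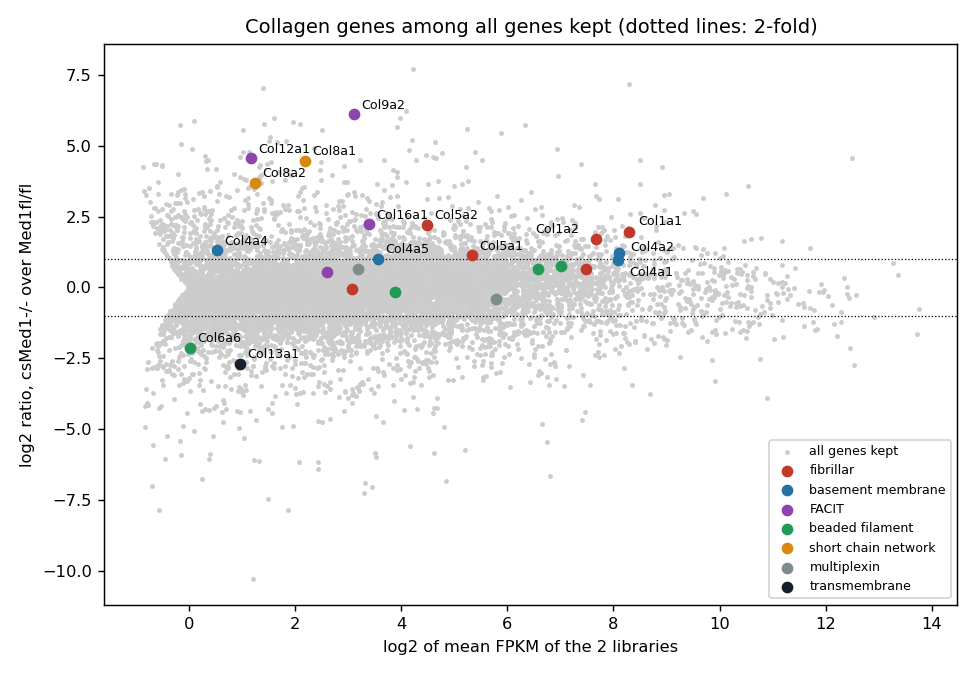
Log2 ratio of csMed1-/- to Med1fl/fl FPKM (vertical axis) against the log2 mean FPKM of both libraries (horizontal axis) for the 10489 genes kept (gray) and the 23 collagen genes among them, colored by class. Col9a2, Col12a1, Col8a1 and Col8a2 lie between 3.70 and 6.12 at low mean FPKM, and Col1a1 and Col1a2 lie near 2 at high mean FPKM.

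The remaining classes had smaller or opposite differences. The main chains of collagen VI, which links cells to the interstitial matrix, had 74.6 and 116 FPKM for Col6a1 (ratio 1.56), 96.0 and 162 FPKM for Col6a2 (1.69) and 15.5 and 13.9 FPKM for Col6a3 (0.895). These chains assemble together, and Col6a2 stood at 6.18 times Col6a3 in Med1fl/fl and 11.7 times in csMed1-/- heart. Col6a6, a chain that can take the place of Col6a3, had 1.65 and 0.380 FPKM, 4.36-fold lower in csMed1-/- heart but inside 2-fold with 1 FPKM added to both values (log2 ratio -0.94), and Col6a5 had 0.0298 and 0.0131 FPKM. Of the multiplexins, Col15a1, found in the basement membrane zone of muscle and capillaries, had 63.2 and 47.7 FPKM (0.754), and Col18a1, the source of endostatin, had 7.07 and 11.1 FPKM (1.57).

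Of the transmembrane collagens only Col13a1, a cell surface protein of muscle junctions, reached 1 FPKM. It had 3.39 and 0.527 FPKM, 6.43-fold lower in csMed1-/- heart. It stands on 2 rows that did not move alike, one with 3.05 and 0.0928 FPKM and the other with 0.340 and 0.435 FPKM. Col17a1, Col23a1 and Col25a1 had ratios between 0.790 and 1.29, all below 1 FPKM. Col7a1, the anchoring fibril gene, had 0.0115 and 0.0603 FPKM, and Col28a1 had 0.0481 and 0.0511 FPKM.

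The genes that act on collagen after its chains are made were read from lists that covered chain modification and folding, processing, breakdown, receptors and partners, and read against the 13.6% of kept genes that were higher and 18.0% that were lower. Of 17 kept genes of chain modification and folding, 3 were more than 2-fold higher and 1 lower, with a median log2 ratio of 0.57. The higher genes were the prolyl 3-hydroxylase family members Lepre1 (17.9 and 37.9 FPKM), Leprel1 (0.936 and 2.19 FPKM) and Leprel2 (10.4 and 21.7 FPKM). Glt25d2, a collagen galactosyltransferase, was lower at 4.16 and 0.853 FPKM. Leprel1 reached 1 FPKM only in csMed1-/- heart and Glt25d2 only in Med1fl/fl heart, so the filter itself favored a difference for both. With 1 FPKM required in both libraries, 2 genes of this list were more than 2-fold higher. With log2 ratios centred by GC content, as described below, 0 genes of this list were more than 2-fold higher. The most abundant genes of the list were within 2-fold, namely Serpinh1, the collagen chaperone HSP47, at 358 and 297 FPKM, and P4hb, the β subunit of prolyl 4-hydroxylase, at 196 and 343 FPKM.

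Genes of procollagen processing were higher in 3 of 5 kept genes, with a median log2 ratio of 1.25. Pcolce, which enhances removal of the C-propeptide, had 97.5 and 268 FPKM (ratio 2.75), Bmp1, the protease that removes it, had 20.6 and 48.8 FPKM (2.37), and Adamts2, the protease of the N-propeptide, had 12.4 and 51.8 FPKM (4.18). Of 8 kept genes of breakdown and its inhibitors, 4 were higher and 0 lower (median log2 ratio close to 1). Of these, 3 were inhibitors of metalloproteinases, Timp1 (4.65 and 40.3 FPKM, ratio 8.66), Timp2 (80.9 and 358 FPKM, 4.42) and Timp4 (30.2 and 65.4 FPKM, 2.17), and the fourth was Mrc2, a receptor that takes up collagen (11.8 and 25.8 FPKM). Mmp2, the most abundant protease of the list, had 102 and 132 FPKM.

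Of 4 kept collagen receptors, Itga11, an integrin chain of fibroblasts, and Ddr1, a collagen-binding kinase, were higher, at 1.11 and 2.49 FPKM and at 25.1 and 53.7 FPKM (0 with centring by GC content). Gpr56, an adhesion receptor that binds collagen III, had 52.9 and 85.0 FPKM. Fibril partners were higher in 7 of 10 genes and lower in 1 (median 1.41). Of the 7, Tnc (0.528 and 2.09 FPKM) reached 1 FPKM only in csMed1-/- heart, and 6 were higher with 1 FPKM required in both libraries. Bgn, the small proteoglycan biglycan, had 194 and 1246 FPKM (ratio 6.42), Fmod, fibromodulin, 2.95 and 27.6 FPKM (9.33), Postn, periostin, 1.57 and 27.4 FPKM (17.5) and Sparc, a collagen-binding glycoprotein, 580 and 1360 FPKM (2.35). Lum, lumican, was lower at 8.04 and 3.72 FPKM. The laminins, nidogens and proteoglycans that share the basement membrane with collagen IV had a median log2 ratio of -0.12 over 13 kept genes (0.0071 as TPM). The abundant Lamb2 (186 and 210 FPKM) and Hspg2 (140 and 219 FPKM) were within 2-fold. The laminin chain Lamc3 (0.142 and 3.93 FPKM) was higher and Lamb3 (9.91 and 1.92 FPKM) lower. Lamc3 reached 1 FPKM only in csMed1-/- heart, so the filter itself favored a difference for this gene.

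**Figure D4:**
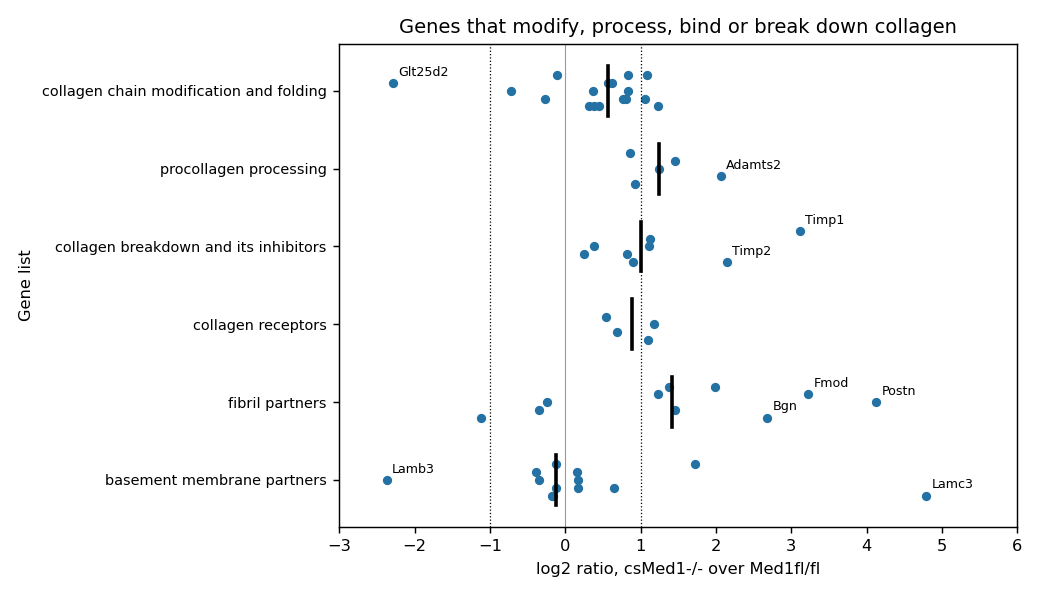
Log2 ratio of csMed1-/- to Med1fl/fl FPKM (horizontal axis) of each kept gene in 6 lists of genes related to collagen, with a black bar at the median of the list and dotted lines at 2-fold. The medians were 1.41 for fibril partners and 1.25 for procollagen processing, and -0.12 (0.0071 as TPM) for basement membrane partners.

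Cell type markers were read beside the collagen genes, since collagen is made by several cell types of the heart. Their counts stand against the same 13.6% higher and 18.0% lower of all kept genes. Dcn and Lum of the fibroblast markers and Postn and Tnc of the activated fibroblast markers also stand among the fibril partners above. Their values are thus the same ones read again and not separate observations. Of 7 kept fibroblast markers, 1 (Tcf21, 10.9 and 25.6 FPKM) was more than 2-fold higher and 2 (Lum, and Dpt at 41.3 and 13.1 FPKM) were lower, with a median log2 ratio of -0.27. Pdgfra had 4.09 and 4.03 FPKM and Dcn 114 and 96.6 FPKM. The 8 fibroblast markers summed to 1730 and 1426 FPKM, most of it from Gsn. Of 5 kept markers of activated fibroblasts, 4 were higher, namely Postn, Cthrc1 (0.258 and 5.62 FPKM), Tnc (0.528 and 2.09 FPKM) and Ltbp2 (0.591 and 29.6 FPKM), and 0 were lower. Cthrc1, Tnc and Ltbp2 reached 1 FPKM only in csMed1-/- heart, so the filter itself favored a difference for these 3. Acta2 had 573 and 310 FPKM and Fap, below 1 FPKM in both, had 0.278 and 0.0671 FPKM. This list summed to 576 and 375 FPKM, most of it from Acta2. The 8 endothelial markers had 0 higher and 3 lower, Kdr, Tek and Emcn, with a median of -0.58 and sums of 584 and 516 FPKM. The others were inside 2-fold and went both ways. Cdh5 had 129 and 92.2 FPKM, Tie1 97.8 and 61.3 FPKM and Pecam1 91.8 and 76.9 FPKM. Egfl7 had 103 and 140 FPKM and Esam 76.4 and 113 FPKM. Of 6 kept mural markers 1 (Cspg4) was higher and 2 (Abcc9 and Myh11) lower, with sums of 148 and 123 FPKM. Abcc9 had 26.2 and 2.44 FPKM, and the study lists it under energy metabolism, so these sums are not read as mural cells alone. Of 5 kept leukocyte markers 0 passed 2-fold in either direction, with sums of 245 and 230 FPKM, and Ptprc had 0.0403 and 0.0147 FPKM. Of 8 kept cardiomyocyte markers 3 (Myl2, Tnnt2 and Tnni3) were lower and 0 higher, with a median of -0.64. The only kept Schwann cell marker, Sox10, had 2.49 and 1.54 FPKM, and the only kept epicardial marker, Wt1, 1.19 and 1.86 FPKM. The part that these cells play in the collagen values was not tested.

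Transcripts rich in G and C had higher ratios than others in these libraries, and collagen transcripts are among the richer ones. Over 9470 genes with an annotated transcript, the median log2 ratio was -0.36 in the third of 10 bins of GC content and 0.33 in the highest bin. The 23 kept collagen genes had a median GC content of 56.4%, against 51.8% over all kept genes. With log2 ratios centred within these bins, 10 in place of 12 members were higher by more than 2-fold and 2 lower. Col5a1 and Col4a2 were then inside 2-fold, at log2 ratios of 0.95 and 0.88, whereas Col1a1 had 1.62, Col9a2 5.79, Col12a1 4.91 and Col8a1 4.83. Col8a1 and Col12a1 lie in the AT-rich part of the range, at 46.8% and 48.3% GC.

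**Figure D5:**
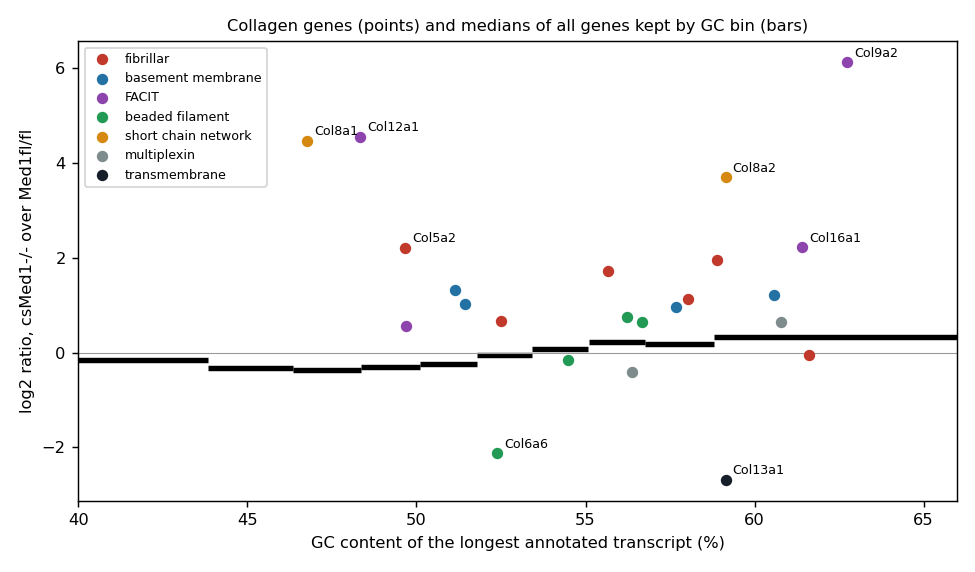
Log2 ratio of csMed1-/- to Med1fl/fl FPKM (vertical axis) against the GC content of the longest annotated transcript (horizontal axis, on which the outer bins are cut at the edges) for the 23 kept collagen genes, with black bars at the median of all kept genes in each of 10 GC bins. The bars run from -0.36 to 0.33, and the collagen genes lie between 46.8% and 62.7% GC, with Col8a1 and Col12a1 at the low end and Col9a2 at the high end.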

How the data were processed

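Heart RNA of 5 Med1fl/fl and of 5 csMed1-/- mice was pooled by genotype, and 1 directional poly(A) library per pool was read as 50 nt single ends. The authors aligned reads to mm10 with TopHat 2.0.8b and deposited FPKM values of known genes from Cufflinks and Cuffdiff 2.1.1. Which library scaling was used is not stated, and the submitters' processing notes also list STAR 2.4.0h and DESeq2 without a role. From these files, rows sharing a symbol were summed (412 symbols), genes were kept if neither value was 0 and the higher value was at least 1 FPKM, and plain ratios without a pseudocount were computed, with 2-fold as the threshold. With 1 library per genotype no test was run. The depth is unknown, so no interval is given for single values. Summed FPKM include every member, kept or not.

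The collagen members, their classes and the gene lists were chosen with earlier results of these data known. Every collagen gene at 1 FPKM or more or past 2-fold was named, together with, from each related or marker list, the 2 most abundant and the 2 most different kept genes. Not all of these were needed in the marker lists. Other genes of these lists past 2-fold, and the markers at or near 0 in each list, were named after their values were seen. Promoter windows and gene coordinates came from RefSeq (GRCm38.p6, the assembly also named mm10), and GC content came from the longest GENCODE M21 transcript, matched by symbol for 90.3% of kept genes and all 42 members. The computation was tested on simulated data with planted 4-fold changes and log2 noise of SD 0.2. This checks the code only and says nothing about the error of the ratios in these libraries. Python 3.11.15, numpy 2.4.6, pandas 2.3.3 and matplotlib 3.10.9 were used. Myh6 was not analysed here. A result for 1 gene of the related lists is not reported here.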

Additional observations from a re-analysis of the deposited data

How the results depend on the processing

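With 1 pooled library per genotype, no alternative that leaves out a replicate exists, and no paired analysis was possible because each genotype has a single library. The counts of higher and lower collagen genes, 12 and 2, became 7 and 0 with 1 FPKM required in both libraries and 6 higher at a 4-fold threshold. The lower genes numbered 1 with a pseudocount of 1, 6 without a filter and 0 with 10 FPKM required in either library. Over 13 alternatives the higher genes ranged from 6 to 17. The basement membrane median log2 ratio was 0.95 with a pseudocount of 1 in place of 1.12, and the ratio of the class sums on the log2 scale was 0.97 without its highest member in place of 1.09. Without a filter, low genes entered and the FACIT median was 0.56 in place of 3.39 and the transmembrane median -0.33 in place of -2.69. The transmembrane sum turned from -1.74 to 0.32 without Col13a1. The sum of Col7a1 and Col28a1, at 0.90, was 1.02 as TPM and 2.39 without the higher of the pair. The median of breakdown genes and inhibitors, just past 2-fold, was 0.94 with a pseudocount of 1 and 0.997 as TPM without the 100 highest genes. That of collagen receptors, at 0.89, was 1.02 as TPM and 0.24 without a filter. Values inside 2-fold that changed sign were Col5a3 (-0.39 to 0.07), the multiplexin median (-0.16 to 0.24), the multiplexin sum (-0.27 to 0.65), the beaded filament median (-0.16 to 0.64) and the median of basement membrane partners (-0.13 to 0.0071). Rescaling to TPM shifted all log2 ratios by 0.12. Of the recomputed class, list and count values, 197 kept their side of the threshold or stayed within 1.5 times of the reported count. The class and list values that changed sign inside 2-fold are among these 197. Of 314 recomputed values for single genes and for counts in the lists, 282 met the same rule, those of Col5a3 among them. The cause of these shifts was not tested beyond what each alternative changes. Centring within GC bins was added after seeing the data. The unknown depth limits every value below 1 FPKM.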
